A study of Mus musculus with 4 samples.

Results

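The genes described here are the mouse Clec genes, which were measured in nestin reporter cells of bone marrow from mice with and without a myeloproliferative neoplasm (MPN). All genes whose symbol begins with Clec and a digit, and whose probe set carries that symbol alone, were taken, which gave 33 of the 19938 genes with a value. They were covered by 34 probe sets. The members were chosen by symbol, and the probe set of a gene was selected on its mean level over the 4 arrays, the highest being kept. This selection touched Clec4g alone, whose kept and dropped probe sets gave log2 differences of 0.55 and 0.51. The genes were proposed with results of these arrays in view, so every difference between the groups is given as a description of the 4 mice.

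Recipients were Nes-gfp mice on a C57BL/6 background, in which the nestin promoter drives green fluorescent protein. The MPN group (n = 3) had received bone marrow cells with the inducible Mx1-cre transgene and a mutant JAK2, and 1 mouse had received control marrow cells. Per the labels, GFP-positive marrow cells negative for CD45, CD31 and Ter119 were taken 10 weeks after transplantation. The sources used here do not say whether the control marrow also carried Mx1-cre, or how old the mice were. The values are log2 expression after RMA (robust multi-array average), as the authors deposited them. The study concerned nerve damage in the niche of blood stem cells in MPN.

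C-type lectin domains are protein folds, many of which bind sugars with the help of calcium. Myeloid cells carry many of these proteins as surface receptors for fungal and bacterial walls, dead cells and crystals. Receptors such as Dectin-1 (Clec7a) and Mincle (Clec4e) signal through the kinase Syk and the adaptor Card9, while others, such as Clec12a and Clec4a2, carry inhibitory motifs. Other family members are secreted by stromal cells, cover endothelium and platelets, or serve as ligands for the Klrb1 receptors of natural killer cells. Clec11a, also called osteolectin, is a secreted factor that promotes bone formation by marrow stromal cells.

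The promoters of 6 myeloid receptor genes and of Clec11a are shown because the results turn on these genes. Each run is the 250 bases before a RefSeq start (GRCm38.p6), written 5′ to 3′ on the strand of the gene. Capitals mark GAGGAA, the core of a PU.1 site, and TTGCNNAA, part of a C/EBP site, each on either strand. PU.1 and C/EBP factors are regulators of myeloid genes.
Clec4e, chr6:123289872-123290121, minus strand: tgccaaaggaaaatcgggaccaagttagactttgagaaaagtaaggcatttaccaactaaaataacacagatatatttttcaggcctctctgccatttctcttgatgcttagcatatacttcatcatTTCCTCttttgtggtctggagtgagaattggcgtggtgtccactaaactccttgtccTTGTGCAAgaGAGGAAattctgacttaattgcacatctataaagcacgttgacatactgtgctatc
Clec4d, chr6:123261857-123262106, plus strand: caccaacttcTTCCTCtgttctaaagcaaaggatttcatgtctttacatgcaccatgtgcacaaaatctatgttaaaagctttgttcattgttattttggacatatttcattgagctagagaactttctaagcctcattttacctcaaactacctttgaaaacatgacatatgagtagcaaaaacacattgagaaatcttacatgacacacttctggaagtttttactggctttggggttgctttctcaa
Clec12a, chr6:129349994-129350243, plus strand: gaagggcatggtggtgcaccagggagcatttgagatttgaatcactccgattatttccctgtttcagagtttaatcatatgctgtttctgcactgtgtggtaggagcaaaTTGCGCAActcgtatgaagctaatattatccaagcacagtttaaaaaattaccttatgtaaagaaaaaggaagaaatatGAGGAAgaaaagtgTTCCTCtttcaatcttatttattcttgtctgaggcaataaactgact
Clec4a2, chr6:123122440-123122689, plus strand: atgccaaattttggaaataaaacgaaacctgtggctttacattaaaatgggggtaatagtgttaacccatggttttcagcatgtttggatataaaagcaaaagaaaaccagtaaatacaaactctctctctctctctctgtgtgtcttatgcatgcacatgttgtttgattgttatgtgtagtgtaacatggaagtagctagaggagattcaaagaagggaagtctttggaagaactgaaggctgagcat
Clec7a, chr6:129472780-129473029, minus strand: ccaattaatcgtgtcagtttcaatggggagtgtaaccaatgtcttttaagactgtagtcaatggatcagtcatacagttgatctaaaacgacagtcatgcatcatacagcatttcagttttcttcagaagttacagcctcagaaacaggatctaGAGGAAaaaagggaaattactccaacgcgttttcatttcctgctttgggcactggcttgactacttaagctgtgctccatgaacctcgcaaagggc
Clec5a, chr6:40585806-40586055, minus strand: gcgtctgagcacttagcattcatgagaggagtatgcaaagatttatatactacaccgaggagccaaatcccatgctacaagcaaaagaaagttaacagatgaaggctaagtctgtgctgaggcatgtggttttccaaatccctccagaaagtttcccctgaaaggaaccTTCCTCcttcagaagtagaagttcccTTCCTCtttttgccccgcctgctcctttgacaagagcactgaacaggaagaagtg
Clec11a, chr7:44306960-44307209, minus strand: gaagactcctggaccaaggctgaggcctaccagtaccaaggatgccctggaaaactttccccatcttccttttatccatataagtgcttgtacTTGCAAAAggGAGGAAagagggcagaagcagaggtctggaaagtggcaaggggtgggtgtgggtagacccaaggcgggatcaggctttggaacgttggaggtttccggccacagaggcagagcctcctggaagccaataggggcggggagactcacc

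Promoters were listed for 26 of the 33 Clec genes, in 29 windows. GAGGAA stood in at least 1 window of 14 of these genes. By window, it stood in 15 of the 29, and in 23.3% of all 32851 windows of this length in the table. TTGCNNAA stood in 4 of the 26 genes, Clec4e, Clec11a, Clec12a and Clec16a. By window, it stood in 4 of the 29, and in 9.56% of all windows. The matches of the motifs did not overlap in any of the 29 windows. The Clec4e window held 2 copies of GAGGAA, beginning 123 and 56 bases before the start, and a TTGCNNAA match at 66. The Clec12a window held GAGGAA at 61 and 47 bases and TTGCNNAA at 140. Clec5a had 2 copies of GAGGAA, Clec7a and Clec4d 1 each, and Clec4a2 neither motif. Clec11a, a gene of stromal cells, held both GAGGAA and TTGCNNAA. Matches describe letters in a window and are not measured sites.

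Pearson's r across genes was 0.872 to 0.886 between MPN arrays and 0.802 to 0.875 between the control array and the MPN arrays, over genes that are not independent. The difference of the median gene was 0.18, higher in MPN, and 1196 olfactory and vomeronasal receptor genes, taken as a mark of background, lay 0.25 higher. The 95th percentile of these receptors' means, 5.21, served as the background limit. Of the genes that define the sort, Nes was under the limit on all arrays, and Pecam1, which encodes CD31, was at 5.36, 6.04 and 5.31 in MPN mice 1, 2 and 3 against 4.97 in the control mouse. Ptprc, which encodes CD45, had values of 10.16, 9.46 and 10.40 against 7.07. All 10 mesenchymal markers were at least 2-fold lower on each MPN array, where 5.78% of all genes were. The summed linear level of these markers was 846 to 1538 against 12008. Of 10 neutrophil markers, 8 were at least 2-fold higher on each MPN array and 0 lower, against 1.13% and 5.78% of all genes. The summed level of the neutrophil markers was 22398 to 32169 against 8034. The neutrophil markers were higher, as were several myeloid lectin genes, and the mesenchymal markers were lower, as was Clec11a. The part of these markers in the differences below was not tested. In bulk RNA, a changed number of cells and a changed level per cell cannot be told apart.

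Of the 33 Clec genes, 16 had a group mean above the background limit, and 17 were under it on every array. At least 2-fold higher on each of the 3 MPN arrays were 4 genes, Clec4e, Clec4d, Clec12a and Clec4a2, all myeloid receptors. Among all genes measured, 1.13% met that rule. At least 2-fold lower on each array were 0 Clec genes, where 5.78% of all genes were. All 3 MPN arrays lay above the control in 20 Clec genes and below it in 7, against 46.8% and 21.1% of all genes. With limma's test across all genes, 0 Clec genes passed an adjusted p of 0.05, and 0% of all genes did. The lowest adjusted p of a Clec gene was 0.174, for Clec4a2, and 3 (Clec4e, Clec4d and Clec4a2) had an unadjusted p under 0.05, all higher in MPN. At that unadjusted threshold 3.97% of all genes were higher and 8.63% lower. Permuting labels over 4 arrays cannot give a p below 0.25, so no permutation test was used.

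**Figure D1:**
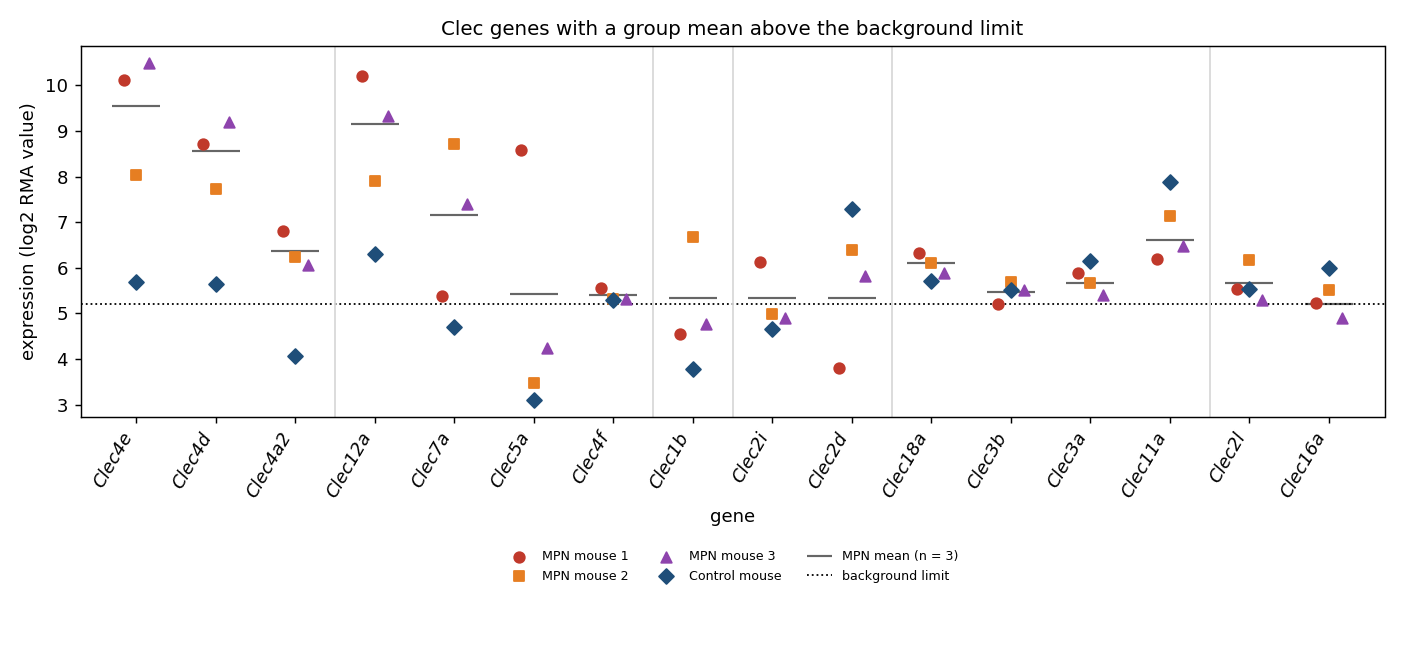
Log2 RMA value (vertical axis) of the 16 Clec genes with a group mean above the background limit (dotted line, 5.21), for the 3 MPN mice (circle, square, triangle), their mean (grey line) and the control mouse (diamond); grey verticals part the groups of genes. Clec4e, Clec4d, Clec4a2 and Clec12a show all 3 MPN mice well above the control, Clec5a is high in MPN mouse 1, and Clec2d and Clec11a lie below the control in all 3; levels of different genes come from different probes and are not comparable.

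Clec4e, or Mincle, is a receptor for mycobacterial glycolipid and for a protein released by dying cells. It was at 10.12, 8.04 and 10.50 in MPN mice 1, 2 and 3, and at 5.70 in the control. Values below follow this order. Every MPN mouse was far above the control, and mouse 2 was the lowest of the 3. The difference of 3.85 (SE 1.18), a 14.5-fold ratio of geometric means, was the largest of the family.

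Clec4d, or MCL, pairs with Mincle at the surface and lies next to it on chromosome 6. Its values were 8.72, 7.74 and 9.21 against 5.65. The order of the mice was that seen for Clec4e, mouse 3 highest and mouse 2 lowest, without overlap with the control. The difference was 2.90 (SE 0.68), or 7.47-fold.

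Clec12a, an inhibitory receptor that recognises uric acid crystals, was at 10.20, 7.90 and 9.34 against 6.31. The groups did not overlap, and mouse 2 again lay nearest the control, at 1.59 above it. The difference was 2.83 (SE 1.04). Clec4a2, the inhibitory receptor DCIR, was at 6.81, 6.25 and 6.07 against 4.06. Its MPN mice lay closer together (SD 0.39) than those of Clec4e (SD 1.33), and its control value was under the background limit, so its difference of 2.32 (SE 0.37) is uncertain in size.

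Clec7a and Clec5a were higher on average but not alike in the 3 mice. Clec7a, the beta-glucan receptor Dectin-1, was at 5.38, 8.72 and 7.40 against 4.69. Mouse 2 was the highest and mouse 1 was 0.68 above the control, which kept the gene outside the 2-fold rule. The control was under background, so the difference of 2.47 (SE 1.50) is uncertain in size. Clec5a, a receptor that signals through the adaptor Tyrobp, was at 8.59, 3.47 and 4.24 against 3.11. Of its 4 arrays only that of mouse 1 lay above background, so the size is uncertain here too, and the difference of 2.32 (SE 2.45) became 0.75 without mouse 1. Mice 2 and 3 lay 0.36 and 1.13 above the control, and mouse 1 lay 5.48 above it.

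The other 10 myeloid receptors differed from the control by less than 2-fold on average. Among them Clec4b2 had the largest difference, 0.96 (SE 0.46), followed by Clec4a3 at 0.85 (SE 0.44), and both were under background on all arrays. Clec10a, a galactose-binding receptor of macrophages, was at 0.55, Clec4a1 at 0.51, Clec4a4 at 0.30 and Clec12b at 0.22. The other 4 had differences near 0, namely Clec4f, the Kupffer cell receptor, at 0.11, Clec4n, which encodes Dectin-2, at -0.0016, Clec9a, a dendritic cell receptor for dead cells, at -0.02, and Clec4b1 at -0.13. Of the 10, only Clec4f had a mean above the background limit, and its difference turned to -0.06 after cyclic loess and -0.15 after the shift to a common median of the background receptors.

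**Figure D2:**
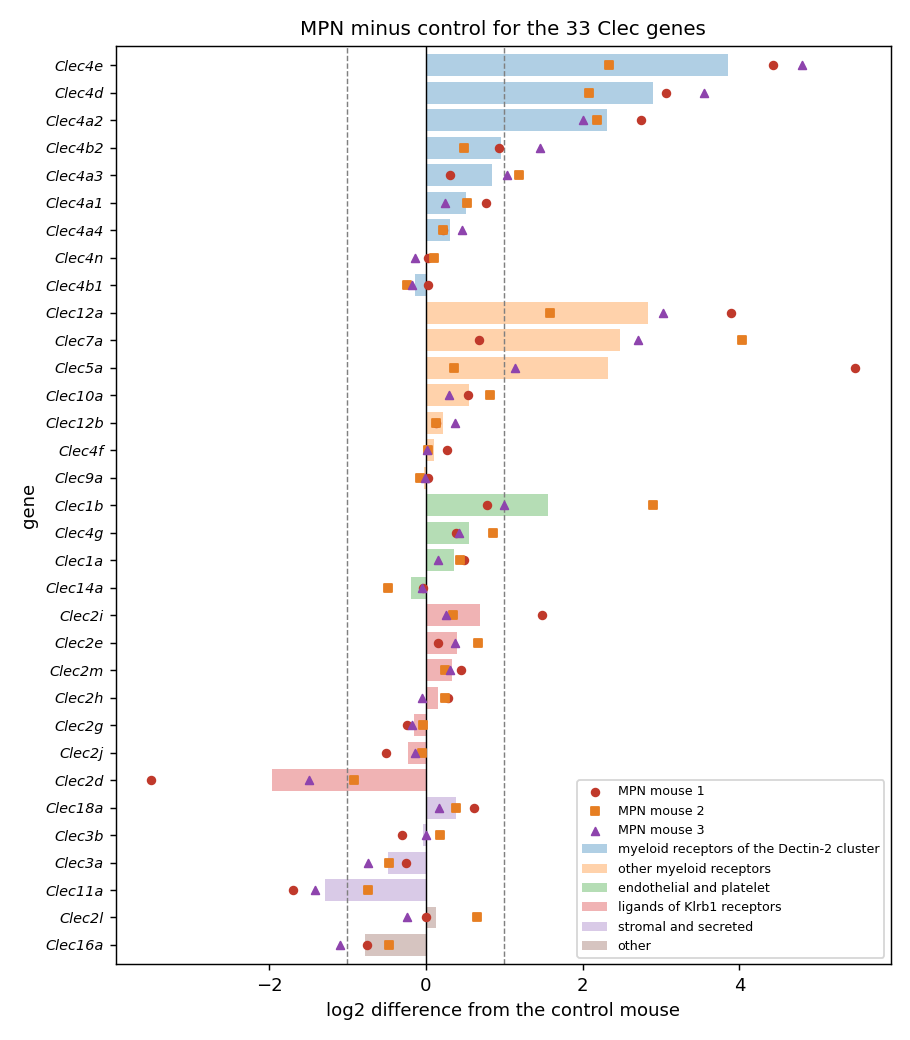
Log2 difference from the control mouse (horizontal axis) for the 33 Clec genes, as the mean of the 3 MPN mice (bar, coloured by group) and for each mouse (circle, square, triangle); dashed lines mark 2-fold. All points of Clec4e, Clec4d, Clec4a2 and Clec12a lie right of the 2-fold line, and no gene has all its points left of the lower one.

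Among endothelial and platelet genes, Clec1b, the platelet receptor CLEC-2 for podoplanin, was at 4.55, 6.67 and 4.78 against 3.77. Mouse 2 stood apart from the other two, and it alone lay above background. The difference was 1.56 (SE 1.04), and 0.89 without mouse 2. Clec4g of sinusoidal endothelium and Clec1a were at 0.55 and 0.37, and Clec14a, an endothelial surface protein, at -0.19, all under background on every array. The 8 endothelial markers had a median difference of 0.47, and 0 were 2-fold apart on each array. Over all genes 1.13% were 2-fold higher and 5.78% lower.

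Clec2d was the Clec gene with the lowest difference. It encodes Clr-b, a ligand that restrains natural killer cells through Klrb1b, and was at 3.80, 6.38 and 5.81 against 7.30. All MPN mice were below the control, mouse 1 by 3.50 and mouse 2 by 0.92, which is just short of 2-fold. The difference of -1.97 (SE 1.21) became -1.20 without mouse 1. Klrb1b itself was under background on all arrays, with a difference of 0.15 (SE 0.18). Of the other 6 genes of this group, only Clec2i had a mean above background, at 6.13 in mouse 1, with the other two MPN mice under the limit, against 4.66 in the control. Its difference of 0.69 (SE 0.62) was 0.30 without mouse 1. The other 5 had differences from -0.23 for the pseudogene Clec2j to 0.40 for Clec2e.

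In the stromal and secreted group, Clec11a was lower with MPN marrow. Values were 6.20, 7.14 and 6.48 against 7.88, and no MPN mouse reached the control. Mouse 2 lay nearest, 0.74 below, and the difference was -1.28 (SE 0.46). Itga11 and Itgb1, the integrin chains known as its receptor, were at least 2-fold lower on each MPN array, at -1.42 (SE 0.29) and -2.18 (SE 0.30). The mesenchymal marker Lepr, which marks the cells that make Clec11a in marrow, was at 6.85, 5.81 and 7.17 against 10.80.

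The other stromal and secreted genes differed less, and not in a shared direction. Their values lay between 5.21 and 6.33, at or little above the background limit of 5.21. Clec3a, a cartilage lectin, was at 5.90, 5.68 and 5.41 against 6.14, a difference of -0.48 (SE 0.26). Clec3b, the secreted protein tetranectin, was at 5.21, 5.70 and 5.51 against 5.51, with mouse 1 below the control, mouse 2 above it and mouse 3 equal to it. Clec18a was at 6.33, 6.10 and 5.89 against 5.72, a difference of 0.39 (SE 0.24) that was 0.13 after the receptor shift. Outside these groups, Clec16a, known for its part in autophagy, was at 5.24, 5.52 and 4.90 against 5.99. All 3 MPN mice were below the control, with a difference of -0.77 (SE 0.31). Clec2l, a gene of the nervous system, was at 5.53, 6.18 and 5.29 against 5.53, with no side held by all mice.

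Set side by side, 13 of the 16 myeloid receptors had all MPN arrays above the control, 0 all below, and 4 were 2-fold higher on each array. Over all genes these shares were 46.8%, 21.1% and 1.13%. Of the 4 stromal and secreted genes, 1 was above the control on all arrays, 2 were below, and 0 were 2-fold apart. Over all genes 5.78% were 2-fold lower on each array. The median difference was 0.70 over the myeloid genes and -0.26 over the stromal and secreted ones, against 0.18 over all genes. By group, the medians were 0.85 for the 9 receptors of the Dectin-2 cluster and 0.55 for the 7 other myeloid receptors. They were 0.46 for the 4 endothelial and platelet genes and 0.16 for the 7 Klrb1 ligands. In this order, the 4 medians were 0.63, 0.36, 0.25 and -0.05 after cyclic loess. After the shift to a common median of the background receptors they were 0.59, 0.30, 0.20 and -0.10. Without mouse 1 the Klrb1 ligand median was 0.10, and without mouse 3 it was 0.27. Of the 16 myeloid genes, 9 were under background on all arrays, so neither the size nor the side of their differences can be read as one of transcripts. They include Clec4b2, Clec4a3, Clec10a, Clec4a1, Clec4a4 and Clec12b, which are among the 13 above the control. The background receptors themselves lay 0.25 higher in MPN.

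Chromosome 6 carries 25 of the 33 genes in the RefSeq annotation, most of them in 2 runs of neighbours. In the run from Clec4a1 to Clec4e, the genes that were 2-fold higher were Clec4a2, Clec4d and Clec4e. Clec4d and Clec4e are adjacent at one end. Their neighbour Clec4n differed by -0.0016 (SE 0.18). Of the genes on either side of Clec4a2, Clec4b1 differed by -0.13 (SE 0.19) and Clec4b2 by 0.96 (SE 0.46). In the second run, Clec12a (2.83) lies between Clec2m (0.33) and Clec12b (0.22), and Clec1b (1.56) follows Clec12b. Clec7a (2.47) lies beside Clec1a (0.37) and also beside Olr1 (2.67), a lectin gene under another symbol. Clec4n, Clec4b1, Clec4b2, Clec2m, Clec12b and Clec1a were under background on every array, so their small differences cannot be read as unchanged transcripts. Members of these runs are close in sequence, and cross-hybridisation of the probes was not checked.

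**Figure D3:**
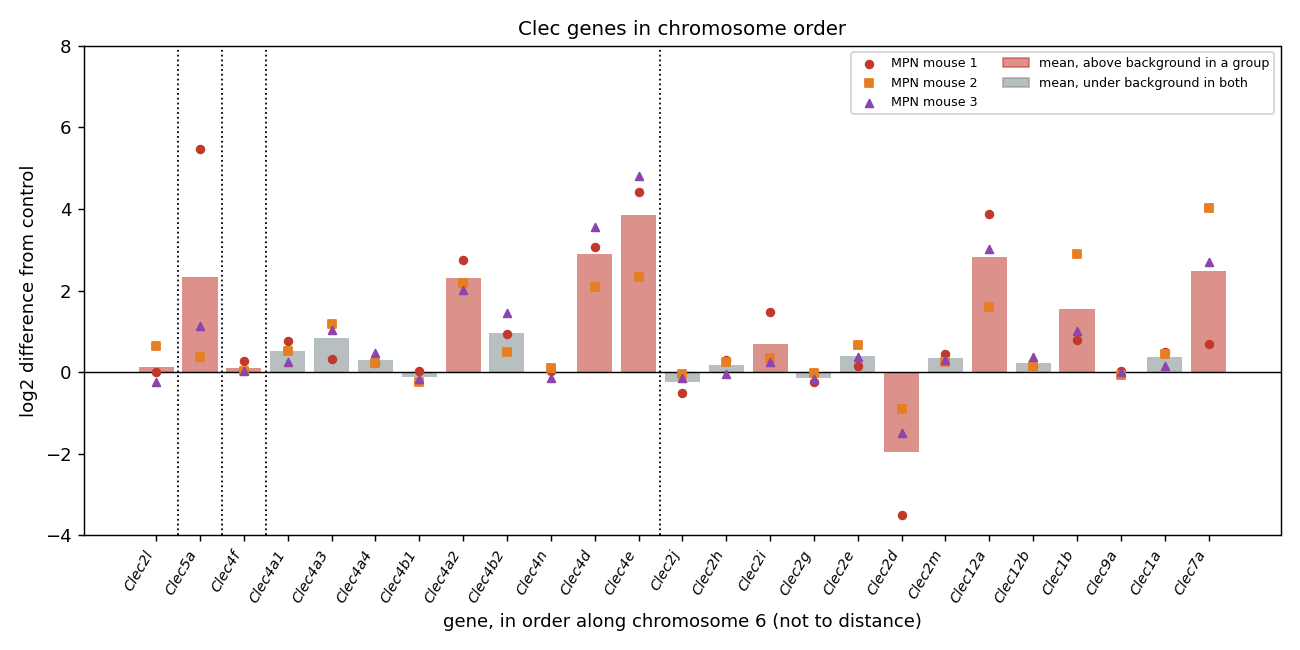
Log2 difference from the control mouse (vertical axis) of the 25 Clec genes on chromosome 6, in their order along it and not to distance; bars are means of the 3 MPN mice, red where a group mean lies above background, and dotted verticals mark gaps of more than 20 other genes. High bars stand at Clec4a2, Clec4d, Clec4e, Clec12a and Clec7a. Neighbours such as Clec4n and Clec12b were near 0 but under background on every array, as was Clec4b2 beside Clec4a2, at 0.96.

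The adaptors of the activating receptors were higher too. Tyrobp, the adaptor of Clec5a, was at 11.36, 11.16 and 11.42 against 8.84, and Fcer1g, the adaptor of Mincle, at 9.79, 9.08 and 10.34 against 7.26. Both were at least 2-fold higher on each MPN array, by 2.47 (SE 0.19) and 2.48 (SE 0.58). Of 11 measured genes of the Syk-Card9 pathway, these 2 met the 2-fold rule, which 1.13% of all genes did. All MPN arrays lay above the control in 9 and below it in 0 (46.8% and 21.1% of all genes), and the median difference was 1.04. Vav1 was at 1.99 (SE 1.52), Hcst at 1.35 (SE 1.15) and Malt1 at 1.05 (SE 0.81), while Syk was at 0.73 (SE 0.56) and Card9 at 0.82 (SE 0.65). Single mice carried several of these values, and the controls of Vav1, Malt1 and Card9 were under background. Without mouse 3, Hcst was at 0.65 and Syk at 0.41, without mouse 1 Malt1 was at 0.63, and without mouse 2 Card9 was at 0.43. The 3 inhibitory phosphatases lay above the control on all arrays, with Ptpn6, which inhibitory lectin receptors recruit, at 1.42 (SE 0.77), Inpp5d at 1.33 (SE 0.60) and Ptpn11 at 1.07 (SE 0.61). With limma, 0 of these 14 genes passed the adjusted threshold, and 2, Tyrobp and Fcer1g, had an unadjusted p under 0.05.

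Among 9 ligands and partners, 0 were 2-fold higher and 2, the integrin chains named above, were 2-fold lower on each array. The shares over all genes were 1.13% and 5.78%. Pdpn, the podoplanin ligand of Clec1b, was at 5.85, 5.79 and 6.07 against 6.97, a difference of -1.06 (SE 0.20). Klrb1f, a receptor of the natural killer family, was at -0.68 (SE 0.34) with MPN values under background, and Klrb1a at 0.31 (SE 0.15) stayed under background. Of 30 measured C-type lectin genes under other symbols, 1 was 2-fold higher and 2 were 2-fold lower on each array, against 1.13% and 5.78% of all genes. The 1 higher was Olr1, the receptor LOX-1 for oxidised lipoprotein and the gene next to Clec7a, at 7.02, 5.50 and 7.86 against a control under background at 4.12. The pair that was lower was Colec12, a scavenger receptor, by -3.72 (SE 0.57), and Cd302, whose MPN values were all under background, by -3.25 (SE 0.48). Mrc2, a collagen uptake receptor of stromal cells, was at -1.22 (SE 0.30) and Pla2r1 at -0.95 (SE 0.15). The macrophage mannose receptor Mrc1 was under background on all arrays.

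The 3 MPN mice differed in which lectin genes were high, and markers of several blood cells differed with them. Clec4e, Clec4d and Clec12a were lowest in mouse 2, as was the neutrophil marker Ly6g at 8.59, 6.66 and 7.86 against 3.40. Cxcr2, another neutrophil receptor gene, was at 9.78, 4.20 and 9.46 against 3.84. The other neutrophil markers were also lowest in mouse 2, except Elane and Mpo, which were lowest in mouse 1 at 9.27 and 11.61. The order was not particular to neutrophil markers, as all 6 measured general leukocyte markers, Ptprc and Cd53 among them, were lowest in mouse 2. Clec7a was highest in mouse 2, as was Ccr2, a monocyte receptor, at 7.10, 9.96 and 8.46 against 5.02. The other monocyte and macrophage markers were divided. Among the MPN mice, C1qa, C1qb and Mertk were also highest in mouse 2, at 5.84, 5.44 and 4.58, the last of these under background. The control was at 5.12, 4.95 and 6.79. Csf1r, Cd68 and Vcan were highest in mouse 3, at 5.84, 7.75 and 5.52 against 4.55, 6.51 and 6.36 in the control. Vcan was thus below the control in every MPN mouse. Cx3cr1, at 6.88, and Adgre1, under background, were highest in mouse 1. Clec1b was highest in mouse 2, as was the platelet gene Pf4 at 6.29, 8.35 and 5.89 against 5.03. Clec5a was high in mouse 1 alone. Ly6g and Cxcr2 were also highest in mouse 1 but high in mouse 3 too, and Cx3cr1 was at 6.50 in mice 2 and 3 and in the control. Of the 9 measured monocyte and macrophage markers, 1 (Ccr2) was 2-fold higher and 1 (Mertk) 2-fold lower on each array. The summed level of these 9 was 487 to 1378 against 506. Of 8 dendritic cell markers 0 were 2-fold apart, with a summed level of 212 to 264 against 178. Xcr1, Itgax, Cd209a and Ccr9 were under background throughout. For both lists the shares over all genes were 1.13% higher and 5.78% lower. With 4 arrays these likenesses are side-by-side values, chosen after they were seen, and were not tested.

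**Figure D4:**
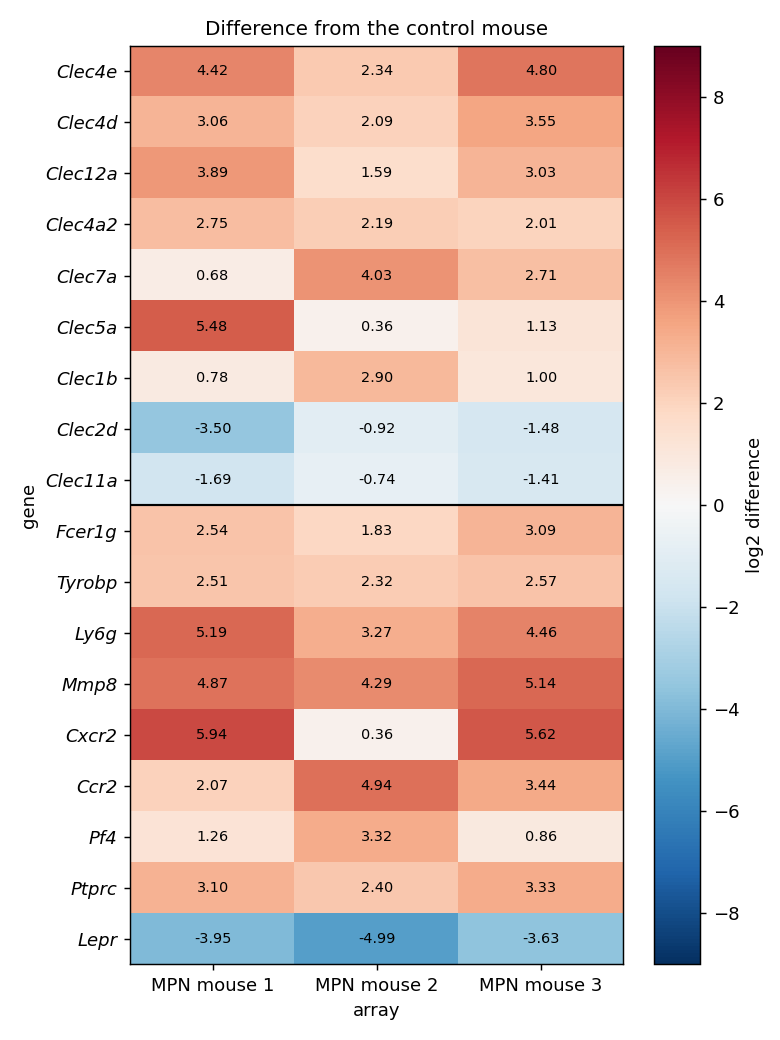
Log2 difference of each MPN mouse (columns) from the control mouse for 9 Clec genes (above the line) and 9 adaptor or marker genes (below it), with red for higher and blue for lower. Clec4e, Clec4d, Clec12a, Ly6g and Cxcr2 have their lowest value in mouse 2, where Clec7a, Ccr2, Clec1b and Pf4 have their highest.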

How the data were processed

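Expression was measured on 4 Affymetrix mouse gene arrays, 3 MPN and 1 control, from RNA amplified with the NuGEN Ovation system, per the design text. The authors deposited log2 values made with RMA, per the submitters' processing notes. RMA corrects background, normalises the arrays to a common distribution and compresses differences near background. Its version, the probe set definitions and the genome build are not stated in the sources used here. The titles name each array as a mouse. The log2 values ran from 1.55 to 13.63. Arrays have no read depth, so their number limits the precision.

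Of 35556 probe sets, 21789 have 1 symbol in the platform annotation, 1621 have several and 12146 are unnamed here. The 33 Clec genes all matched RefSeq by gene identifier. In 4 of them, and in 12.7% of all genes, 2 or more arrays hold an identical value. MPN was compared with control over 19938 genes with limma 3.58.1 in R 4.3.3 (lmFit, eBayes, two-sided) and Benjamini-Hochberg adjustment at 0.05. The fit has 2 residual degrees of freedom, which come from the MPN mice, and 1.39 prior ones. The lone control is assumed to vary like them. SE belongs to the difference in this fit, and SD to the 3 MPN arrays. The fit was run on simulated data with planted differences. That run checked the mean estimates, and could not check the assumption about the lone control, because all simulated arrays varied alike.

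The members and the lists of groups, partners and markers were chosen with earlier results of these data known. Named were Clec genes above background in either group, those 2-fold from the control on each MPN array and those nearest that line. Of each list of related genes, up to 5 with the largest difference were named, with others where the text turns on them. The alternatives left out each MPN mouse, averaged a gene's probe sets or took the lowest, removed genes under background, repeated quantile normalisation and applied cyclic loess. Others shifted the arrays to a common median of all probe sets or of the background receptors, or used a trended, robust variance prior.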

Additional observations from a re-analysis of the deposited data

How the results depend on the processing

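The 4 Clec genes that were 2-fold higher on each MPN array remained so under all 11 alternatives. Leaving out a mouse could not remove such a call, and the probe set, background filter and variance prior settings left these genes' values unchanged. Only the renormalised and shifted settings could have removed one. The number 2-fold higher rose to 7 without MPN mouse 1, with Clec7a, Clec1b and Clec4a3 added, and without any 1 mouse it ran from 4 to 7. The number 2-fold lower was 1 after cyclic loess (Clec2d) and 2 after the shift to the background receptors' median (Clec2d and Clec11a), and ran from 0 to 2 without any 1 mouse, the 2 (the same pair) being without mouse 2. The number of all genes past limma's adjusted threshold was 97 after cyclic loess, 153 after the receptor shift and 167 with the trended, robust prior, and 0 Clec genes passed in any setting. The myeloid median of 0.70 was 0.50 after cyclic loess, 0.44 after the receptor shift and 2.47 over the 7 genes left by the background filter, which keeps genes through the group where they are high. The median of -0.26 over the stromal and secreted genes was -0.41 after cyclic loess and -0.52 after the receptor shift. These 2 settings lowered the difference of the median gene by a log2 shift of -0.17 and -0.26. Of 176 values for single Clec genes, 5 moved by over 1 SD, all after cyclic loess or the receptor shift. The 176 include the probe set, background filter and variance prior settings, which repeated the main value of every gene counted. Those values could not move. Leaving out a mouse cannot move a mean by over 1 SD of the same MPN arrays, so those settings could not be counted either. Clec5a went from 2.32 to 0.75 without mouse 1 and was not counted, because its SD was 2.76. For both reasons, 5 of 176 is not a measure of stability. Of the 4 called genes, 0 turned sign, which only the renormalised and shifted settings could have caused. Clec2l (-0.12 to 0.33), Clec3b (-0.29 to 0.09) and Clec4f (-0.15 to 0.15) had no direction that held. No paired analysis was possible with a lone control mouse. Values near the background limit bound what can be read of the 17 genes under it.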
